A study of Mus with 8 samples.

Results

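Transcripts of 10 genes of neutrophils and of acute inflammation were followed in subcutaneous tumours of Pan02 cells, a mouse pancreatic cancer line. The genes are S100a8, S100a9, Lcn2, Camp, Ltf, Ngp, Cxcr2, Csf3r, Il1r2 and Retnlg, chosen by name, and they are represented by 12 of the 56605 probes and 10 of the 22911 named genes on the array. Mutant tumours grew in B6 hosts that carried Ext1 flox/flox together with S100a4-Cre, and Control tumours grew in wild-type B6 hosts (4 tumours each). All hosts received the same cancer cells, whose own Ext1 was not targeted, and tumours were removed 36 to 40 days later. Total RNA of each whole tumour was hybridised to 1 Cy3 array. The Ext1 protein helps to polymerise heparan sulfate, and S100a4, whose promoter drives the recombinase, is active in fibroblasts and in some leukocytes, so that the recombinase is not limited to fibroblasts. Host age and sex are not given in the sources used here. The comparison asks how these transcripts differ in the whole tumour when host cells of that lineage lose Ext1.

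Neutrophils are short-lived phagocytes that leave the marrow under control of the growth factor G-CSF and enter inflamed tissue along gradients of CXC chemokines, which they sense through CXCR2. Their granules are filled in sequence during maturation in the marrow, so that mRNAs of granule proteins such as cathelicidin, lactoferrin and neutrophilic granule protein mark immature cells, whereas the calcium-binding proteins S100A8 and S100A9 and the receptors CXCR2 and IL-1R2 are prominent in mature ones. Several of the 10 genes are also induced outside neutrophils in inflammation: lipocalin 2 by epithelial and cancer cells, and S100a8 and S100a9 by monocytes and keratinocytes. In RNA of whole tumours, fewer cells of a type and less RNA per cell cannot be told apart.

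A level is the log2 of a probe's signal over the 75th percentile of its array, a difference is the mean Mutant level minus the mean Control level, and levels of different probes are not set against each other. The share of probes well above background ran from 61.5% to 67.2%. The 8 arrays lay on 1 slide, with Mutant 1, Mutant 2, Control 1 and Control 2 in its first row and the other 4 tumours in its second. Control 4 stood apart over all genes, which was described after the groups had been compared. It was the lowest of the 8 tumours in 35.2% of all genes and the highest in 22.4%. Control 3 was the highest in 25.3%, and no tumour but Control 4 was the lowest in more than 13.5%. The array of Control 4 had the lowest 75th percentile (575.9, against 665.4 to 740.7 on the others). Its share of probes well above background, 67.2%, was the highest of the 8 arrays. Ext1 was at 3.15 ± 0.22 in Mutant and 3.07 ± 0.76 in Control tumours, and S100a4 at 8.43 ± 0.35 in Mutant and 8.19 ± 0.54 in Control tumours (SD, n = 4 each). Neither value checks the deletion, since cancer cells carry intact Ext1 and the position of the probe in the gene is not known here. Of markers that define the labelled cells, the keratins Krt8 and Krt18 were above background on all 8 arrays, while Epcam was at background on all of them.

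None of the genes tested passed at the threshold set across all genes. Of the 9 genes that were above background on at least 4 arrays, 7 had a higher mean in Mutant tumours (S100a8, S100a9, Lcn2, Camp, Ltf, Cxcr2 and Il1r2), and Csf3r and Retnlg differed by -0.04 and -0.11. The median difference of the 9 was 0.62, where that of all 16068 genes was 0.01, and 52.4% of all genes had a difference above 0. At an adjusted p under 0.05, limma called 0 of the 9 and 0 of the 16068 genes (0% higher, 0% lower), and at an unadjusted p under 0.05 it gave 1 of the 9, Lcn2, against 1.87% of all genes higher and 1.03% lower. Mutant and Control levels overlapped in each of the 9 genes, while 0.716% of all genes were without overlap on the higher side and 0.703% on the lower side. S100a9 and Lcn2 were at least 2-fold higher and none of the 9 was 2-fold lower, beside 2.23% and 0.554% of all genes. Without Control 4 the median difference of the 9 was 0.20, and that of all genes was -0.02. Of the 9 genes 7 were then above 0, with Cxcr2 turned to below 0 and Retnlg to above it, beside 46.9% of all genes.

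**Figure D1:**
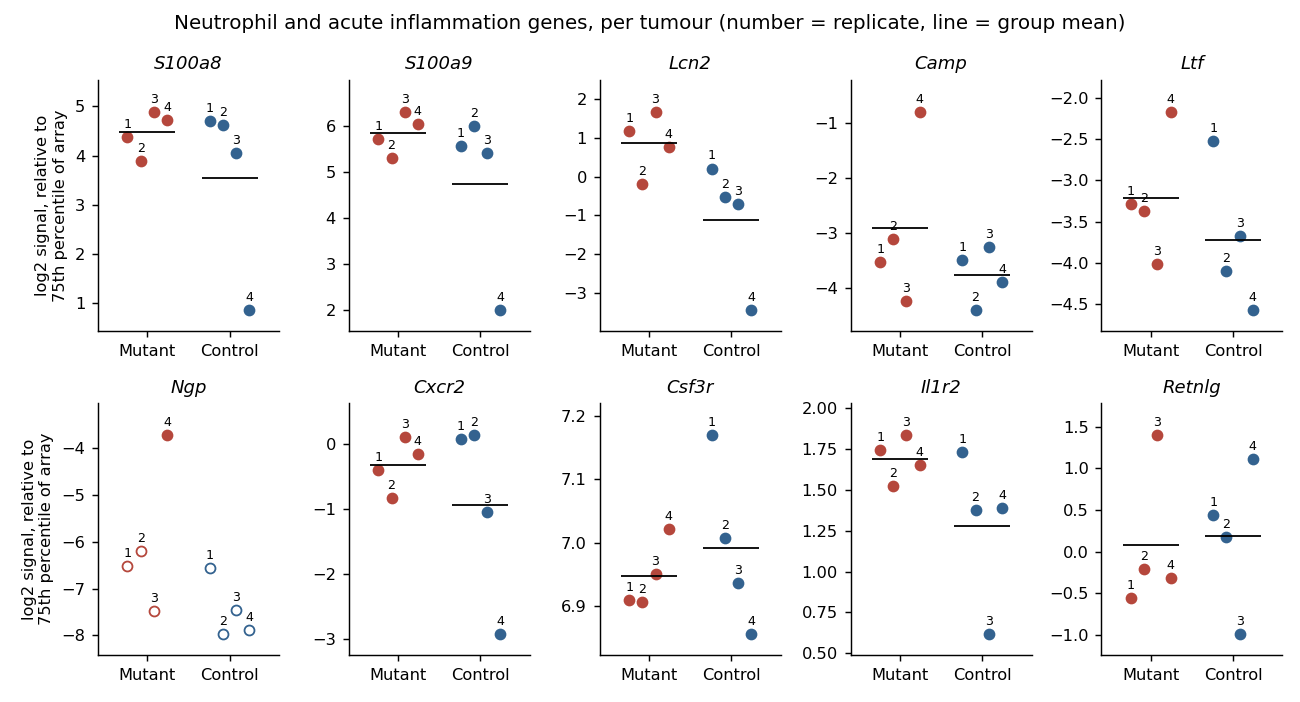
Level, the log2 of signal over the array's 75th percentile (vertical axes, 1 scale per gene) of the 10 genes in the 4 Mutant and 4 Control tumours; numbers are replicates, lines are group means (drawn for the 9 genes tested), and open symbols are signals not well above background. Control 4 lies far below the other 7 tumours in S100a8, S100a9, Lcn2 and Cxcr2, and Mutant 4 lies far above the others in Camp and is the only tumour above background in Ngp.

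S100a8 and S100a9 encode the subunits of calprotectin, a calcium- and zinc-binding complex that makes up much of the neutrophil cytosol. They are neighbours on the chromosome, with 0 genes annotated between them. S100a8 was at 4.37, 3.89, 4.90 and 4.73 in Mutant 1 to 4, and at 4.69, 4.62, 4.05 and 0.85 in Control 1 to 4. All tumours but Control 4 thus fell within a 2.00-fold range, and Control 4 lay 8.26-fold below the lowest of these. S100a8 averaged 4.47 ± 0.44 in Mutant and 3.55 ± 1.83 in Control tumours (SD, n = 4 each), so that they differed by 0.92 ± 0.83 (SE; limma adjusted p = 1.00, two-sided exact permutation p = 0.486). S100a9 was at 5.72, 5.29, 6.31 and 6.03 in Mutant 1 to 4, and at 5.56, 5.98, 5.41 and 1.99 in Control 1 to 4. It had the same shape, with Control 4 lying 9.83-fold below the lowest of the others, which spanned 2.02-fold. S100a9 differed by 1.10 ± 0.84 (SE; limma adjusted p = 1.00, two-sided exact permutation p = 0.257). Without Control 4 the difference was 0.02 for S100a8, with a 95% interval of -0.64 to 0.68, and 0.19 for S100a9, with an interval of -0.44 to 0.82.

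Lcn2, the siderophore-binding protein lipocalin 2, had the widest difference and the smallest p of the 9 genes. It was at 1.18, -0.19, 1.69 and 0.77 in Mutant 1 to 4, and at 0.21, -0.52, -0.70 and -3.45 in Control 1 to 4. Mutant 1, 3 and 4 lay above every Control tumour, Mutant 2 lay below Control 1, and Control 4 was 6.76-fold below the next lowest tumour. Lcn2 averaged 0.86 ± 0.79 in Mutant and -1.11 ± 1.61 in Control tumours (SD, n = 4 each). Mutant tumours thus held 3.93-fold more, a difference of 1.98 with a 95% interval of 0.14 to 3.81 (unadjusted limma p = 0.0379, adjusted p = 1.00, two-sided exact permutation p = 0.0571). Without Control 4 the Lcn2 difference was 1.20, or 2.29-fold, with an interval of 0.11 to 2.28 (limma adjusted p = 0.885, two-sided exact permutation p = 0.0857 over 35 arrangements). The second Lcn2 probe read -0.91, -2.31, -0.34 and -1.11 in Mutant 1 to 4, and -2.01, -2.62, -2.78 and -7.96 in Control 1 to 4, where Control 4 was not well above background. Both probes ranked Mutant 3 first, Mutant 1 second and Control 4 last.

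Camp, Ltf and Ngp encode proteins of the secondary granules: the precursor of the antimicrobial peptide cathelicidin, the iron-binding lactoferrin and neutrophilic granule protein, a relative of cathelicidin. All 3 were highest in Mutant 4. Camp was at -3.52, -3.10, -4.22 and -0.79 in Mutant 1 to 4, and at -3.49, -4.40, -3.24 and -3.89 in Control 1 to 4. Mutant 4 was 4.97-fold above the next tumour, and the other 3 Mutant tumours lay inside the Control range or near its edge. Camp differed by 0.85 ± 0.69 (SE; limma adjusted p = 1.00, two-sided exact permutation p = 0.371), and by 0.14 without Mutant 4. Ltf was at -3.29, -3.37, -4.01 and -2.16 in Mutant 1 to 4, and at -2.52, -4.10, -3.68 and -4.58 in Control 1 to 4. Control 1 had the second highest Ltf level, so that the groups interleaved. Ltf differed by 0.51 ± 0.52 (SE; limma adjusted p = 1.00, two-sided exact permutation p = 0.4), and by 0.16 without Mutant 4 and 0.91 without Control 1. Ngp was well above background on 1 array, Mutant 4, at -3.72, where the other Mutant tumours read -7.47 to -6.19 and the Control tumours -7.97 to -6.56. It fell under the filter, so it was not tested, and no fold is given because the Mutant mean lies under the lowest signal that counts as above background.

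Cxcr2 and Csf3r encode the chemokine receptor that draws neutrophils into tissue and the receptor for G-CSF. Cxcr2 was at -0.39, -0.83, 0.11 and -0.15 in Mutant 1 to 4, and at 0.08, 0.14, -1.04 and -2.92 in Control 1 to 4. As with calprotectin, Control 4 was the lowest tumour, 3.69-fold under the next, while Control 1 and Control 2 were level with the highest Mutant tumour. The Cxcr2 difference was 0.62 ± 0.66 (SE; limma adjusted p = 1.00, two-sided exact permutation p = 0.6) and turned to -0.04 without Control 4, with an interval of -0.87 to 0.79. Csf3r was at 6.91, 6.91, 6.95 and 7.02 in Mutant 1 to 4, and at 7.17, 7.01, 6.94 and 6.86 in Control 1 to 4. Its whole range was 1.24-fold, where that of Cxcr2 was 8.33-fold, and its SD within groups lay at the 4.47th percentile of all genes. Csf3r rests on 1 probe, which was bright on every array, at a signal of 66701 to 95814, with 0 spots flagged as saturated. Whether the narrow range belongs to the gene or to the probe was not tested. Control 4 was also the lowest tumour here, by 1.04-fold. The Csf3r difference of -0.04 had a 95% interval of -0.28 to 0.19 (two-sided exact permutation p = 0.6, limma adjusted p = 1.00) and turned to 0.01 without Control 1.

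Il1r2 encodes the decoy receptor that binds interleukin-1 without signalling, and Retnlg encodes resistin-like gamma, a secreted protein of neutrophils in the mouse. Il1r2 was at 1.75, 1.52, 1.84 and 1.65 in Mutant 1 to 4, and at 1.74, 1.38, 0.62 and 1.39 in Control 1 to 4. The Mutant tumours lay close together at 1.69 ± 0.13, above Control 2, 3 and 4, and only Control 1 reached their range (Control 1.28 ± 0.47, SD, n = 4 each). The Il1r2 difference was 0.41, or 1.33-fold, with a 95% interval of -0.12 to 0.94 (two-sided exact permutation p = 0.0857, limma adjusted p = 1.00). Without Control 3, the lowest tumour, it was 0.19, and without Control 1 it was 0.56. The second Il1r2 probe differed by 0.41 too. Retnlg was at -0.56, -0.21, 1.40 and -0.32 in Mutant 1 to 4, and at 0.44, 0.18, -0.99 and 1.11 in Control 1 to 4. Control 4, lowest in calprotectin and Lcn2, was the second highest tumour in Retnlg. The Retnlg difference of -0.11 had an interval of -1.39 to 1.18 (two-sided exact permutation p = 0.886, limma adjusted p = 1.00), and its sign turned without Control 4 (0.20), Mutant 1 (0.11) or Mutant 4 (0.03).

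**Figure D2:**
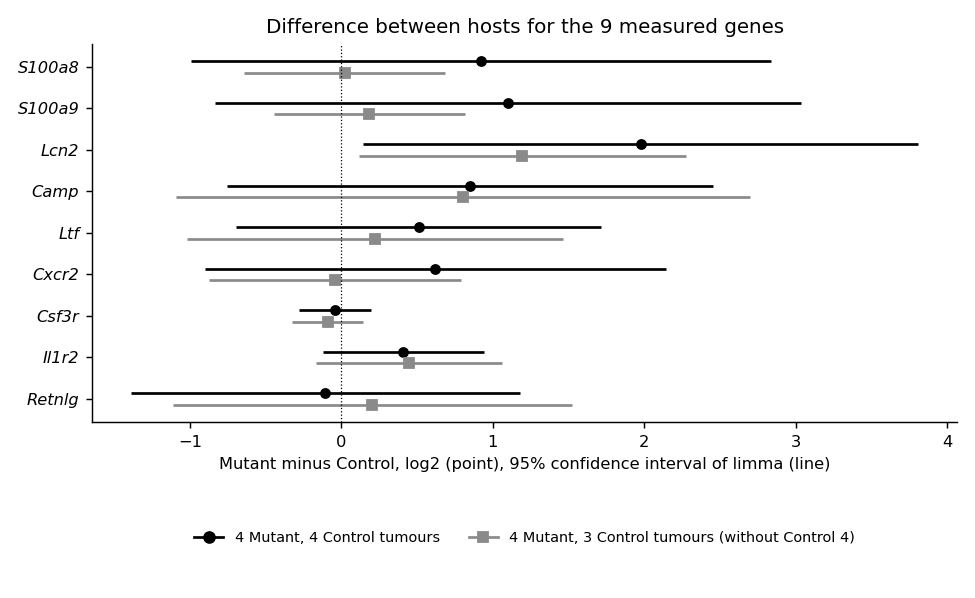
Mutant minus Control difference on the log2 scale (points) with the 95% confidence interval of limma (lines) for the 9 genes tested, with all 8 tumours (circles) and without Control 4 (squares). All intervals except those of Lcn2 include 0, and the differences of S100a8, S100a9 and Cxcr2 lie at 0.02, 0.19 and -0.04 without Control 4.

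The genes differed in which tumours were high and low. Control 4 was the lowest tumour in 6 of the 9 genes (S100a8, S100a9, Lcn2, Cxcr2, Csf3r and Ltf) and the highest in 0, beside 35.2% and 22.4% of all genes. Mutant 3 was the highest in 5 genes (S100a8, S100a9, Lcn2, Il1r2 and Retnlg) and Mutant 4 in Camp and Ltf, beside 12.6% and 6.6% of all genes. The SD within the group was smaller in Mutant than in Control tumours in 7 of the 9 genes, Camp and Retnlg being the exceptions. The share of all genes was not computed here, so this count is not read as particular to the 9. The mean of the 9 genes, each centred on its own mean over the tumours, was 0.20, -0.05, 0.51 and 0.72 in Mutant 1 to 4, and 0.39, -0.01, -0.33 and -1.44 in Control 1 to 4. By a rule of likeness, the 5 other genes whose deviations from their group means ran closest to those of this mean were Mta2, Soga3, Senp3, Chek2 and Gipc1, each with a Pearson r of 0.99 over 8 tumours. They were taken as the highest of 16041 genes, so the value is a description only, and each of the 5 was also lowest in Control 4.

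**Figure D3:**
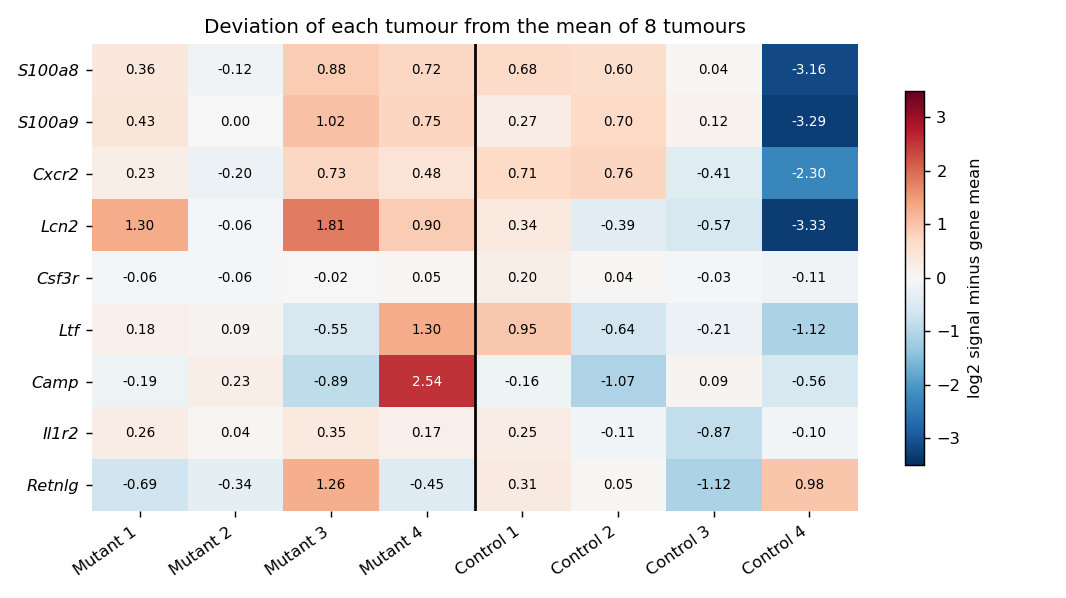
Log2 signal of each tumour minus the gene's mean over the 8 tumours (colour and number) for the 9 genes tested, with Mutant tumours left of the line and Control tumours right of it. S100a8, S100a9, Cxcr2 and Lcn2 are far below their means in Control 4, whereas Camp and Ltf are highest in Mutant 4 and Retnlg is high in Mutant 3 and Control 4.

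The direction of the differences was not the same in both rows of the slide, though the change between rows was not tested. Within the first row 3 of the 9 genes were higher in Mutant tumours (Lcn2, Camp and Il1r2), beside 49.3% of all genes, with a median of -0.18, and S100a8 differed by -0.52, S100a9 by -0.27, Cxcr2 by -0.72 and Ltf by -0.02. Within the second row, which holds Control 3 and Control 4, all 9 were higher in Mutant tumours, beside 50.2% of all genes, with a median of 1.06. Each row compares 2 tumours with 2, and 0 genes passed at an adjusted p under 0.05 in either row by limma. At an unadjusted p under 0.05, Cxcr2 and Retnlg were lower in Mutant tumours within the first row, beside 3.72% of all genes lower there, and Lcn2 was higher within the second, beside 2.36% of all genes higher there. Lcn2, Camp and Il1r2 were higher in Mutant tumours in both rows, at 0.65 and 3.31 for Lcn2, 0.63 and 1.06 for Camp and 0.08 and 0.74 for Il1r2, beside 18.3% of all genes that were higher in both.

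No gene of the other neutrophil functions listed passed the test either. Of 47 measured genes in a list of other neutrophil genes 32 were above 0, beside 52.4% of all genes. The median was 0.10 (33 genes and 0.19 without Control 4). Limma called 0 of the 47 at an adjusted p under 0.05. Before adjustment, 2 of the 47 had a limma p under 0.05, both higher in Mutant tumours. Of all genes, 1.87% were higher and 1.03% lower by that measure. The 2 were Mmp8, the neutrophil collagenase, and Fpr2, a receptor for formylated peptides and serum amyloid A. Mmp8 was at -1.48, -2.07, -1.32 and -1.81 in Mutant 1 to 4, and at -3.11, -2.42, -1.85 and -3.38 in Control 1 to 4, a difference of 1.02 ± 0.35 (SE; limma adjusted p = 1.00). Only Control 3 reached the Mutant range. Fpr2 was at 1.20, 0.72, 0.73 and 0.45 in Mutant 1 to 4, and at -0.28, 0.39, 0.59 and -0.50 in Control 1 to 4, a difference of 0.72 ± 0.28 (SE; limma adjusted p = 1.00). Wfdc21 differed by 1.19, or 0.58 without Control 4 (limma adjusted p = 1.00). Cd177 was above background on 1 array, Mutant 1. Control 4 was the lowest tumour in 14 of the 47 genes and the highest in 19, beside 35.2% and 22.4% of all genes. Among those it was lowest in, singled out after their values were seen, were the stefins Stfa2 at -4.23 and Stfa2l1 at -4.76, against -1.60 to -0.01 and -1.36 to 0.16 in the Mutant tumours and -1.48 to -0.68 and -1.59 to -0.56 in Control 1 to 3. Among those it was highest in was Cebpe, a transcription factor of granulocyte maturation, at 0.57, against -2.81 to -1.69 in Mutant tumours, with Control 1 next and -2.72 and -3.25 in Control 2 and Control 3.

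The same held for attractants of neutrophils. Of 15 measured genes in this list 8 were above 0, beside 52.4% of all genes. The median was 0.01 (8 genes and 0.15 without Control 4). Limma called 0 at an adjusted p under 0.05, with 0 at an unadjusted p under 0.05. G-CSF itself (Csf3) was at background on all 8 arrays, as were Il17a, Il17f and Il23a, and Csf2 was above it in Mutant 1, Mutant 2 and Control 4. The CXCR2 ligand Cxcl5 was at 4.95, 5.10, 5.86 and 5.27 in Mutant 1 to 4, and at 5.36, 5.55, 4.54 and 2.66 in Control 1 to 4. The further CXCR2 ligands Cxcl1, Cxcl2 and Cxcl3 were singled out after their values were seen, and Control 4 was the lowest tumour in each of them too. Cxcl3 stood at -1.82 in Control 4, against 1.26 to 2.05 in Mutant tumours and 1.17 to 2.28 in Control 1 to 3. Cxcl2 stood at -2.86 in Control 4, against -0.79 to -0.46 in Mutant tumours and -0.61 to -0.01 in Control 1 to 3. With all tumours the differences were 0.77 for Cxcl5, 0.57 for Cxcl1, 0.33 for Cxcl2 and 0.77 for Cxcl3, and without Control 4 they were 0.15, -0.02, -0.31 and -0.14 (limma adjusted p = 1.00 for each with all tumours). Il6, a cytokine of the acute response, differed by 0.99, or 0.27 without Control 4, and Tnf by -0.25. Cxcl15, a CXC chemokine known from mouse lung, was not well above background in Control 4, and without that tumour it differed by 1.17.

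**Figure D4:**
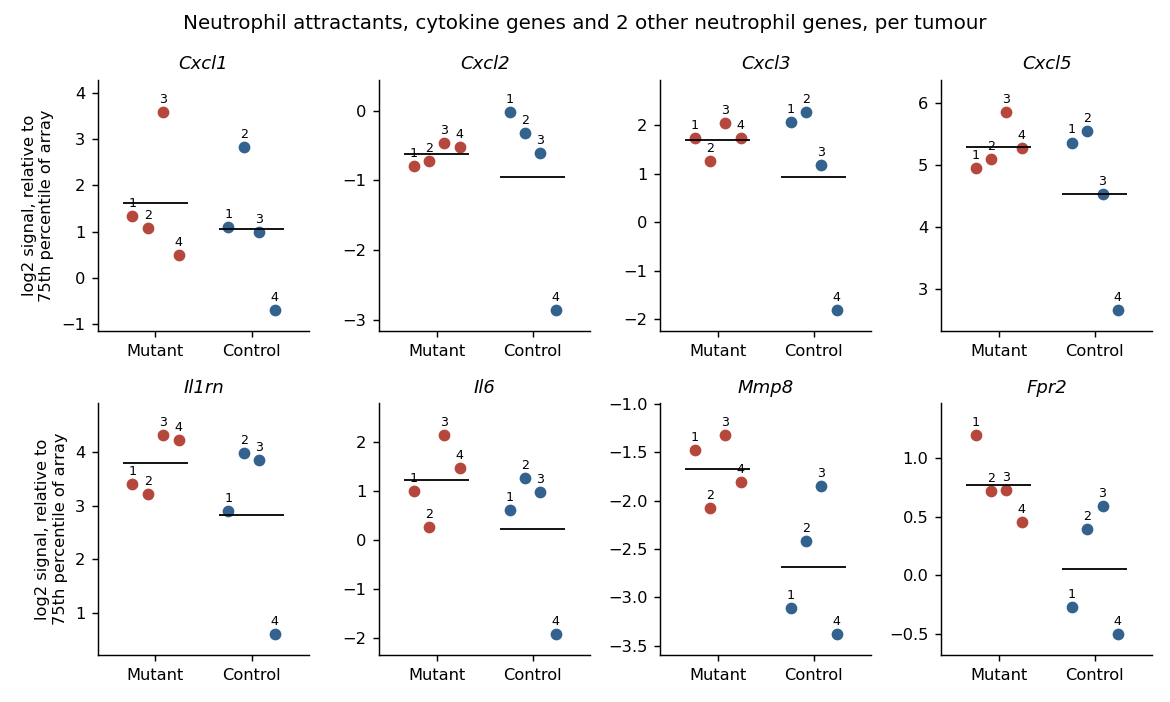
Level, the log2 of signal over the array's 75th percentile (vertical axes, 1 scale per gene) of 4 CXCR2 ligands, Il1rn, Il6, Mmp8 and Fpr2 in the 4 Mutant and 4 Control tumours, with numbers for replicates and lines for group means. Control 4 is the lowest tumour in all 8 panels, and Mutant 3 is the highest in Cxcl1, Cxcl5, Il1rn, Il6 and Mmp8.

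In the interleukin-1 axis, with the receptors of S100A8 and S100A9, 8 of 16 measured genes were above 0, beside 52.4% of all genes. The median was -0.01 (10 genes and 0.12 without Control 4). Limma called 0 at an adjusted p under 0.05, with 0 at an unadjusted p under 0.05. Il1rn, the secreted antagonist of the interleukin-1 receptor, was at 3.40, 3.22, 4.31 and 4.22 in Mutant 1 to 4, and at 2.91, 3.97, 3.85 and 0.61 in Control 1 to 4. Its difference of 0.96 was 0.21 without Control 4. The cytokine gene Il18 differed by 0.61, Casp1, the protease that activates interleukin-1 beta, by 0.34, and Ager, a receptor for S100 proteins, by -0.23 (limma adjusted p = 1.00 for each). Il1a was at background on all arrays. Acute phase genes were above 0 in 14 of 16 measured members, beside 52.4% of all genes. Their median was 0.31 (14 genes and 0.57 without Control 4). Limma called 0 of them at an adjusted p under 0.05, with 0 at an unadjusted p under 0.05. Itih4, a plasma protein, differed by 1.03 and the plasma glycoprotein Orm1 by 1.13 (limma adjusted p = 1.00 for each). The transcription factor Cebpd differed by 0.33 and the nuclear regulator Nfkbiz by 0.30 (limma adjusted p = 1.00 for each). Acute phase level did not follow that of the 9 genes: the mean level of the list was highest in Mutant 2 (0.98) and lowest among Mutant tumours in Mutant 4 (-0.58), and Control 4 was at 0.37, above the other Control tumours at -0.66 to -0.19.

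Markers of other cells moved across the same tumours. The mean level of 12 fibroblast markers was -1.07 to 0.96 in Mutant and -1.38 to 2.25 in Control tumours, that of 14 macrophage and monocyte markers -0.56 to 0.40 in Mutant and -0.38 to 0.81 in Control tumours, that of 9 T cell markers -1.02 to 0.67 in Mutant and -1.85 to 1.34 in Control tumours, and that of 8 simple epithelial markers -0.54 to 0.05 in Mutant and -0.24 to 0.80 in Control tumours. Control 4 held the highest value in each of these 4 lists, and the lowest in the list of 16 skeletal muscle markers (-3.46, against -0.84 to 2.87 in Mutant tumours and -1.74 to 0.27 in Control 1 to 3). Markers of eosinophils, basophils and mast cells, 10 of them measured, ran from -0.24 to 0.17 in Mutant tumours and from -1.30 to 1.26 in Control tumours, again highest in Control 4. Epx, which defines eosinophils, was at background on all arrays. Of the keratinocyte markers 12 were measured, and Krt1 and Ivl were at background on all arrays. The 12 ran from -0.84 to 1.34 in Mutant and from -0.37 to 0.47 in Control tumours. They were highest in Mutant 3, the tumour that was also highest in S100a8, S100a9 and Lcn2. Control 4, lowest in those genes, had the next highest keratinocyte level (0.47). Mutant 4, second highest in S100a8 and S100a9, had the lowest (-0.84). Summed over the list and in units of the 75th percentile, the keratinocyte signal was 3.54 to 9.33 in Mutant and 4.35 to 9.67 in Control tumours. That of the macrophage list was 224 to 376 in Mutant and 186 to 412 in Control tumours. That of the fibroblast list was 185 to 809 in Mutant and 106.7 to 1614 in Control tumours. That of the muscle list was 18.9 to 157 in Mutant and 6.38 to 38.1 in Control tumours. All 16 muscle markers had a higher mean in Mutant tumours, beside 52.4% of all genes. Their median difference was 2.87, or 1.99 without Control 4, which is larger than that of the 9 genes. By limma 0 passed at an adjusted p under 0.05, with 10 at an unadjusted p under 0.05, beside 1.87% of all genes higher. B cell, endothelial, erythroid and platelet lists had median differences of 0.11, 0.18, 0.70 and -0.10. With the muscle level as a covariate, the differences of S100a8, S100a9 and Cxcr2 were -0.20, -0.02 and -0.28, that of Lcn2 was 1.33, and 4 of the 9 genes were above 0. The part that these cells, the slide row or the state of Control 4 had in the differences was not tested.

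**Figure D5:**
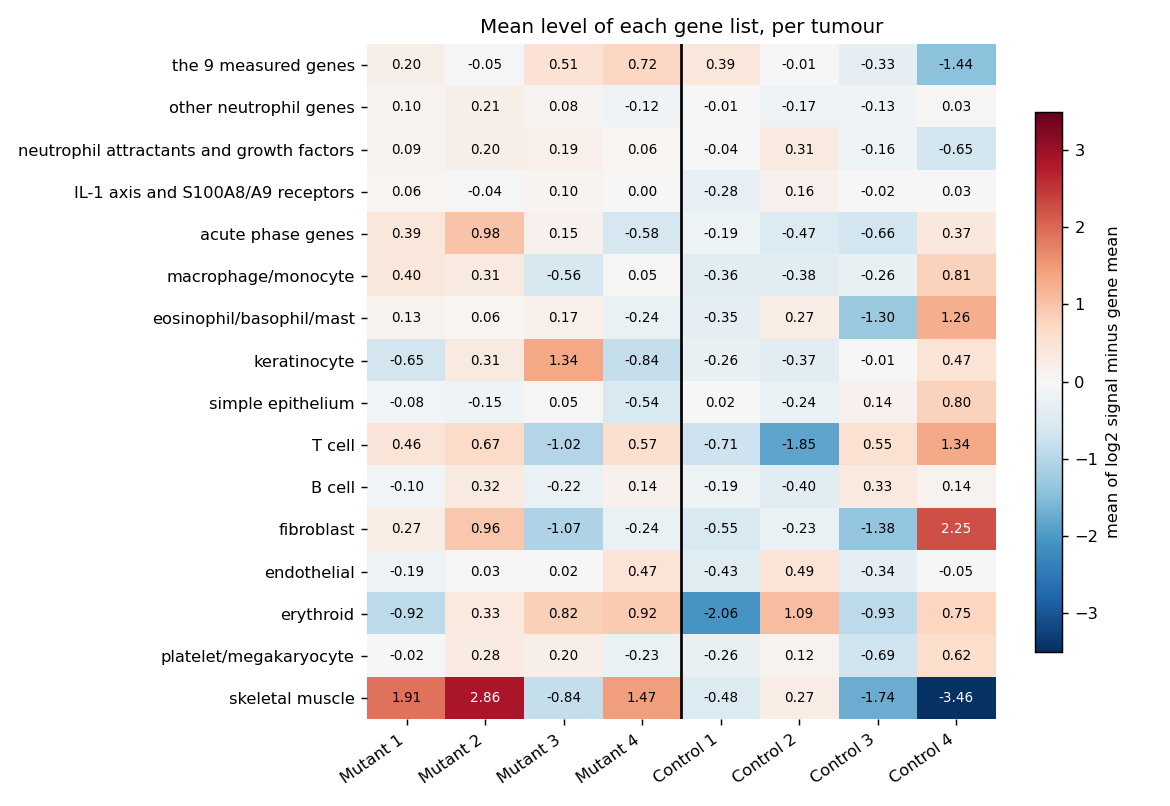
Mean over the genes of a list of the log2 signal minus each gene's mean over the 8 tumours (colour and number), with Mutant tumours left of the line and Control tumours right of it. Control 4 has the lowest value for the 9 genes, for neutrophil attractants and for skeletal muscle, and the highest for macrophage, eosinophil, basophil and mast cell, simple epithelial, T cell, fibroblast and platelet markers.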

How the data were processed

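Whole-tumour RNA was measured on Agilent 1-colour arrays. Spot intensity was, per the file headers, extracted with Feature Extraction 10.7.3.1 (the submitters' processing notes name 9.1), background-subtracted and spatially detrended within the array. It was deposited on a linear scale without scaling between arrays, beside flag columns of other kinds (0 or 1). The authors' deposited value table holds the same intensity for 99.5% of probes, within 0.01%. Probes were named through their RefSeq accession in a gene table of GRCm38.p6 (32994 of 56605 probes); the array design names another build, so no coordinates are given, and no sequence tables were used here.

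Outlier and control spots were left out, spots of a probe averaged, log2 signals centred on the 75th percentile, probes well above background on at least 4 arrays kept, and the brightest probe taken per gene, leaving 16068 genes. Groups were compared by limma 3.58.1 (R 4.3.3), with Benjamini-Hochberg adjustment over all genes, and single genes by two-sided exact permutation over 70 arrangements, where the smallest p is 0.0286. The number of arrays limits the precision. Tumours were taken as independent, since the design text gives 4 hosts for each group. The pipeline was tested on simulated data.

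The genes and lists were chosen with earlier results of these data known, so no list was tested as a whole. Genes named by rule are the 10 members, Ext1 and S100a4, up to 4 genes of smallest p per pathway list and the 5 most alike in pattern. A gene that met this rule is not reported here. Other genes, among them Cxcl1, Cxcl2, Cxcl3, Stfa2, Stfa2l1, Cebpe, Chil3, Saa3 and Serpina3n, were chosen after their values were seen, or are markers given as present or at background. Of the listed genes, Ly6g, Olfm4, Serpina3g and others without a matched probe were not used here. Alternatives covered background correction, normalization, filters, probe choice, the value table, variance trend, array weights, replicate number and slide row as blocks, single slide rows, muscle level and leaving out each tumour. Mean spot signals were not among the columns, so normexp used medians. Lists without Control 4 were added after the data were seen.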

Additional observations from a re-analysis of the deposited data

Results flagged for a closer look

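In the 4 Control tumours, Control 4 was far from the others in S100a8 and S100a9. For S100a8 the gap between Control 4, at 0.85, and the nearest Control tumour took up 0.832 of the group's range, the others lying at 4.05 to 4.69. For S100a9 this share was 0.856, with Control 4 at 1.99 and the others at 5.41 to 5.98. Both shares are past Dixon's 95% critical value for 4 samples. Chance puts about 1 in 20 groups past it, and both genes were read from the same array.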

How the results depend on the processing

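Over 24 alternative settings limma called 0 of the genes followed and 0 of all genes at an adjusted p under 0.05, while the number of all genes at an unadjusted p under 0.05, 467 in the reported setting, ran from 151 (muscle covariate) to 1912 (first slide row). Differences of Lcn2, Camp and Il1r2 kept their sign in every setting, from 0.65 to 3.31 for Lcn2, 0.14 to 1.28 for Camp and 0.08 to 0.74 for Il1r2. The unadjusted limma p of Lcn2 did not stay under 0.05, running from 0.020 (without Control 1) to 0.32 (first slide row). It was 0.28 with the muscle covariate and 0.054 with the mean of a gene's probes. Within the first slide row 3 genes were above 0 with a median of -0.18, and S100a8 was -0.52, S100a9 -0.27, Cxcr2 -0.72 and Ltf -0.019; within the second, Csf3r was 0.090 and Retnlg 0.48. With the muscle covariate 4 genes were above 0 with a median of -0.017, and S100a8 was -0.20, S100a9 -0.017, Cxcr2 -0.28, Ltf -0.16 and Retnlg 0.77. Csf3r was 0.044 after quantile normalization and Cxcr2 -0.043 with array weights. With a tumour left out, Retnlg ran from -0.54 to 0.20 (0.026 without Mutant 4, 0.11 without Mutant 1), Csf3r from -0.090 to 0.014, Cxcr2 from -0.041 to 0.98, S100a8 from 0.02 to 1.30, S100a9 from 0.19 to 1.52, and the median of the 9 genes from 0.20 to 0.93, lowest without Control 4. The interleukin-1 list median was 0.12 without Control 4. The cause of these changes was not tested. Deviations of same-numbered tumours of the 2 groups correlated with r of 0.08, -0.31, 0.05 and -0.31. Deviations within a group sum to 0, so these values cannot decide whether the numbers mark pairs. With the replicate block 0 genes were called. Lcn2 differed by 1.98 there, as it must when each number holds 1 tumour of each group. Ngp, not well above background on 7 of 8 arrays, is given no difference under any setting.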

Other observations

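Some neutrophil and acute phase genes outside the 10 varied widely between tumours of 1 group, and they are given as values. Chil3, a chitinase-like protein of neutrophils and macrophages, was at 0.57 to 3.09 in Mutant tumours, and in Control tumours at 5.85 in Control 1 and 5.39 in Control 4 but 0.92 in Control 2 and -0.33 in Control 3. Saa3, a serum amyloid A of inflamed tissue, was at 3.03, 5.13, 1.24 and 0.16 in Mutant 1 to 4 and at 0.91, -0.45, 1.37 and 2.47 in Control 1 to 4. Serpina3n, an inhibitor of serine proteases, stood at -0.34 in Mutant 2, with -5.41 to -4.47 in the other Mutant tumours, and at 0.29 in Control 4, while the other Control tumours were not well above background. These genes were singled out after their values were seen.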
